A study of Hydra vulgaris with 36 samples.

Results

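The libraries described here are those of the control animals of a Hydra study: 18 of its 36 RNA-seq libraries, chosen as every library whose column was read as DMSO. Hydra vulgaris of the Basel strain had been fed regularly, was starved for 24 h and was then held for 48 h in Hydra medium with 1% DMSO, a solvent, renewed every 12 h. Control polyps were collected at the end of that incubation (0 h), or 3 h (3 h) and 6 h (6 h) after the medium had been exchanged for fresh medium with 1% DMSO, with 6 biological replicates at each time and about 25 whole animals pooled per sample. The other 18 libraries came from animals that received 20 µM DAPT, an inhibitor of the gamma-secretase complex that cleaves Notch, together with the same 1% DMSO, until 0 h. All groups therefore share the starvation and the solvent, and none was kept in medium without DMSO. Whether animals were fed during the incubation is not stated. The deposited table marks its columns S or P without saying what they stand for. S was taken for DMSO and P for DAPT, since each letter occurs in only that word; under the opposite reading the animals described here would be the DAPT animals.

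A Hydra polyp is a tube of outer and inner epithelium with a head and a foot, through which the descendants of the third lineage, the interstitial stem cells, are spread as nerve cells, stinging cells, gland cells and germ cells. The epithelial and stem cells keep dividing in the adult, and well fed polyps bud while starved polyps stop budding and shrink. RNA from whole animals mixes all of these cells, so a lower count of a transcript can mean fewer cells of a type or less RNA per cell, and these cannot be told apart. The genes carry identifiers of a Trinity assembly, whose common prefix TRINITY_ is left out below. None of the 12410 identifiers matched the RefSeq gene table used here, so no gene is named by function and no cell type marker could be checked. The sources used here do not give the assembly's sequences, and none are printed.

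Total counts per library ran from 5692414 to 14060485. Mean totals of 11168400 ± 2136970, 9192860 ± 2563460 and 7372750 ± 2073880 (SD, n = 6 each) were found for 0 h, 3 h and 6 h in turn. The total at 6 h was below that at 0 h by an unadjusted two-sided exact permutation test (p = 0.0216, 6 against 6), but not after Benjamini-Hochberg (BH) adjustment over the 15 tests of library measures (adjusted p = 0.325). A count of 3, taken as the floor, corresponded to 0.181 to 0.791 counts-per-million (CPM) depending on the library. The table holds no gene that was at 0 in any library, so genes switched fully on or off are not seen. One library, replicate 4 of 6 h, stood apart from the rest. The main counts of called genes that change without it are given both ways. Other values include it unless stated otherwise, and many of them also move without it.

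The polyp transcriptome was strongly uneven. In single libraries the most counted gene took 2.69% to 6.39% of the counts, the 20 most counted genes 23.3% to 40.9%, and the 100 most counted genes 48.4% to 62.8%. Between 40 and 110 genes sufficed for 50% of the counts, and 979 to 2267 genes for 90%. Expressed as an effective number of equally counted genes (the exponential of the Shannon entropy), the libraries held 423 to 962. These are shares of counts, which also scale with transcript length, and gene lengths were not used.

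Averaged over the 18 libraries, 154 of the 12074 genes that passed the low-count filter lay at 1000 CPM or more and together held 63.5% of the counts. The median gene lay at 7.03 CPM. At the low end, 1725 genes with a mean under 2 CPM held 0.242% of the counts between them.

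**Figure D1:**
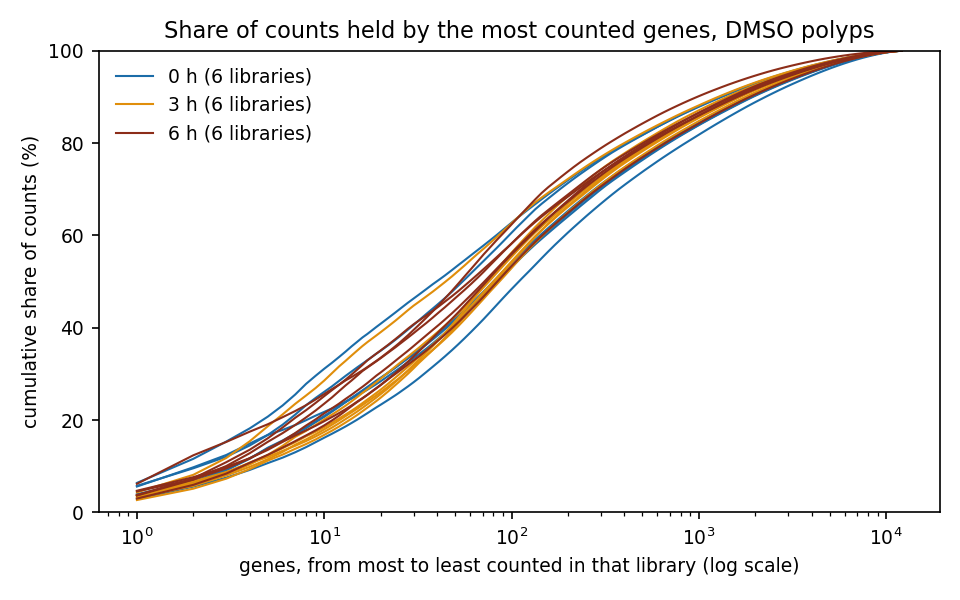
Cumulative share of counts (%) against the number of genes taken from the most to the least counted (log axis), 1 line per DMSO library, coloured by time. Lines of the 3 times are interleaved; the 20 most counted genes hold between 23.3% and 40.9% of the counts.

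None of the 5 measures of library composition and depth (total count, share of the top gene, share of the top 20, effective number of genes, genes that hold 50% of the counts) differed between times after adjustment. The top 20 genes held 31.0% ± 6.10 of the counts at 0 h, 28.5% ± 5.34 at 3 h and 31.2% ± 3.22 at 6 h (SD, n = 6). The effective number of genes was 679 ± 194, 666 ± 115 and 604 ± 110 in the same order. The smallest adjusted p of the 15 two-sided exact permutation tests was 0.325, and 0.649 without replicate 4 of 6 h.

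The identity of the leading genes was partly shared. Of all genes that reached the top 20 of any library, 35 in number, 8 were in the top 20 of all 18 libraries. For the top 100, the numbers were 146 and 63. DN3888_c0_g1 was the first gene in 14 libraries, DN1149_c1_g1 in 2, and DN2787_c2_g1 and DN744_c0_g1 in 1 each.

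The most counted gene, TRINITY_DN3888_c0_g1, had a lowest, median and highest value of 21825, 41732 and 75227 CPM at 0 h. Its values were 23268, 33694 and 51469 CPM at 3 h and 21193, 41852 and 95719 CPM at 6 h. The 3 times overlapped widely. The log2 difference of 6 h from 0 h was 0.04 (SE 0.34, edgeR adjusted p = 0.976). Another gene of its assembly component is in the table, and how reads were shared between the members is not known.

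The gene with the second highest mean, TRINITY_DN196_c0_g1, was far less steady, with a 17.7-fold range from the lowest to the highest library. At 0 h its lowest, median and highest values were 5401, 22775 and 61361 CPM, at 3 h 12410, 20220 and 42819 CPM, and at 6 h 9072, 16946 and 95548 CPM. The highest value came from replicate 4 of 6 h. At 0 h the libraries numbered 1 to 3 were all high and those numbered 4 to 6 all low, with no overlap.

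In contrast, TRINITY_DN2196_c0_g1 stayed between 19441 and 28481 CPM in all 18 libraries, a 1.46-fold range, with means of 23339 ± 2915 CPM at 0 h, 22907 ± 2559 CPM at 3 h and 23540 ± 3321 CPM at 6 h (SD, n = 6). The other 2 of the 5 genes with the highest means, DN2787_c2_g1 and DN1280_c0_g1, spanned 4.82-fold and 4.23-fold, and both were highest in replicate 2 of 3 h, at 44964 and 38604 CPM. Over the 20 genes with the highest means the range was 1.46-fold to 17.7-fold with a median of 4.63-fold. None of the 20 differed between 6 h and 0 h past the threshold (smallest edgeR adjusted p = 0.436).

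The first question was whether control animals changed after the medium exchange. At an adjusted p under 0.05 over all 12074 genes (edgeR's quasi-likelihood test over the 18 libraries), no gene was called in any of the comparisons of 3 h with 0 h, of 6 h with 3 h or of 6 h with 0 h, a background of 0% called in each. The 3 comparisons share libraries and are not independent. At an unadjusted p under 0.05 the numbers were 1215 (10.1%), 956 (7.92%) and 1362 genes (11.3%). A share of about 0.05 would pass if nothing changed. The excess was not tested, and the absence of calls does not show that nothing changed. The smallest adjusted p were 0.358, 0.0612 and 0.166. DESeq2 called 11, 55 and 14 genes and limma-voom 0, 1 and 0 in the same comparisons. Without replicate 4 of 6 h, 1998, 1332 and 797 of 12158 genes were at an unadjusted edgeR p under 0.05.

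The counts at an unadjusted p under 0.05 leaned in different directions. From 0 h to 3 h, 347 genes were higher and 868 lower. From 3 h to 6 h, 373 were higher and 583 lower, and from 0 h to 6 h, 796 were higher and 566 lower. These splits depend on the scaling: with library totals in place of TMM factors they were 158 and 952, 60 and 661, and 100 and 936, and the median log2 difference over all genes moved from -0.02 to -0.14 for 3 h against 0 h and from -0.01 to -0.19 for 6 h against 0 h.

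The size of change that the libraries could show was limited, and most genes were bounded. The 95% confidence interval of the log2 difference lay within 2-fold in both directions for 9321 genes (77.2%) for 3 h against 0 h, for 9558 (79.2%) for 6 h against 3 h and for 9169 (75.9%) for 6 h against 0 h. The median interval reached 0.48, 0.49 and 0.48 on the log2 scale to each side of the estimate. The median absolute log2 difference was 0.21, 0.19 and 0.22. Between 6 h and 0 h, 83.5% of the genes of 10 to 100 CPM were bounded within 2-fold, against 58.3% of those under 2 CPM and 63.0% of those at 1000 CPM or more. For the remaining genes the interval reached beyond 2-fold. Without replicate 4 of 6 h, 10243 of 12158 genes were bounded for 6 h against 0 h.

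Counting genes whose 6 libraries of one time lay all above or all below the 6 of the other gave 28 higher and 25 lower at 3 h than at 0 h (0.439% of the genes tested), and 33 higher and 25 lower at 6 h than at 0 h (0.48%). From 3 h to 6 h the numbers were 36 higher and 131 lower (1.38%). The comparison of 6 h with 3 h thus had the most separated genes, most of them lower at 6 h.

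The order of the 3 means was uneven as well. Of the 12074 genes, 37.3% had their lowest mean at 3 h, 24.3% their highest mean at 3 h, 23.0% had means that were higher at each later time and 15.4% means that were lower. No gene was called for 3 h against the mean of 0 h and 6 h (0%, edgeR, smallest adjusted p = 0.0942). There 1011 genes (8.37%) were at an unadjusted p under 0.05, and DESeq2 called 37 and limma-voom 4. No gene was called for any difference among the times either (0%, edgeR, smallest adjusted p = 0.128). In that test 1223 genes (10.1%) were at an unadjusted p under 0.05, and DESeq2 called 75 and limma-voom 7.

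Without replicate 4 of 6 h, 40 of 12158 genes (0.329%) were called for 6 h against 3 h, and all 40 were lower at 6 h. Their log2 differences lay between -2.69 and -0.65 with a median of -2.15, beside a median of 0.01 over all genes tested. The 40 genes were of low to middling abundance, with means of 0.915 to 18.9 CPM and a median of 5.63 CPM over the 39 of them that also passed the filter with all 18 libraries. With all 18 libraries none of these 39 was called, at a median log2 difference of -1.81. The library left out lay below all 6 libraries of 3 h in 16 of the 39 genes, beside 36.2% of all genes. Without that library no gene was called for 3 h or 6 h against 0 h or for a trend. Any difference among the times was then called for 6 of the 12158 genes. For 3 h against the mean of 0 h and 6 h, 16 of them were called, 15 higher at 3 h.

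TRINITY_DN1588_c0_g1, the gene of the 40 with the smallest p, had a lowest, median and highest value of 6.14, 7.70 and 17.6 CPM at 0 h, 9.64, 16.3 and 24.2 CPM at 3 h and 2.61, 3.83 and 9.23 CPM at 6 h. All 6 libraries of 6 h lay below all 6 of 3 h, and the highest of them was replicate 4. Without replicate 4 its log2 CPM fell by 2.17 from 3 h to 6 h (SE 0.29; adjusted p = 0.0071, edgeR). With all libraries the log2 difference was -1.88 (SE 0.32, adjusted p = 0.0612). It was called in neither setting between 3 h and 0 h, where the log2 difference was 0.81 with all libraries (adjusted p = 0.476).

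The second gene, TRINITY_DN1101_c0_g1, had values of 4.63, 5.93 and 10.5 CPM at 0 h, 8.97, 13.7 and 24.2 CPM at 3 h and 1.15, 3.39 and 9.23 CPM at 6 h. Here replicate 4 of 6 h lay just above the lowest library of 3 h, and the other 5 libraries of 6 h lay below all of 3 h. Without that replicate its log2 CPM fell by 2.17 (SE 0.33; adjusted p = 0.0141, edgeR), and the difference with all libraries was -1.83 (adjusted p = 0.0612). It shares its assembly component with 2 other genes of the table. Both genes were chosen for their p after the values were seen.

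Without replicate 4 of 6 h, all 40 genes had a positive log2 difference of 3 h from 0 h, with a median of 0.64. Of all 12158 genes tested, 52.8% had a negative one. From 0 h to 6 h all 40 had a negative difference, with a median of -1.38, beside 54.7% of all genes. None of the 40 was called in either comparison. The 0 h libraries took no part as a mean in the contrast that chose the genes, but the 3 h and 6 h libraries did. That choice can favour both signs. The DAPT animals give the same genes in libraries that the choice did not use. There 37 of the 40 were lower at 6 h than at 3 h (92.5%, against 50.2% of the 11857 genes tested in DAPT), with a median log2 difference of -0.46 and a range of -1.43 to 0.23. None of the 40 was called in DAPT and 3 had an unadjusted p under 0.05. The genes vary together, as given below, so 37 of 40 is not a count of independent observations. For TRINITY_DN1588_c0_g1 the DAPT difference was -0.47 (edgeR adjusted p = 0.936).

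The 40 genes also varied together among libraries of a single time. The median over the genes of the log2 level relative to the mean of all 36 libraries in DMSO spanned -0.45 to 1.12 at 0 h, 0.34 to 1.56 at 3 h and -1.53 to 0.30 at 6 h. In DAPT it spanned -1.16 to 1.42, -0.87 to 1.77 and -2.08 to 1.77, so libraries of a single DAPT time differed by more than the medians of any 2 times. In DAPT at 0 h, numbers 1 to 3 lay at 0.33 to 1.42 and numbers 4 to 6 at -1.16 to -0.80. At 6 h in DAPT these ranges were -0.51 to 1.77 and -2.08 to -0.78, while at 3 h they overlapped. The part of this shared variation in the difference between 3 h and 6 h was not tested. The pooled SD of log2 CPM within time of these genes had a median of 0.67, against 0.40 over all genes. Both values include the 6 h library that was left out when the genes were chosen. That choice can favour genes whose spread this library widens. The comparison therefore cannot show whether these genes vary more than others.

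**Figure D2:**
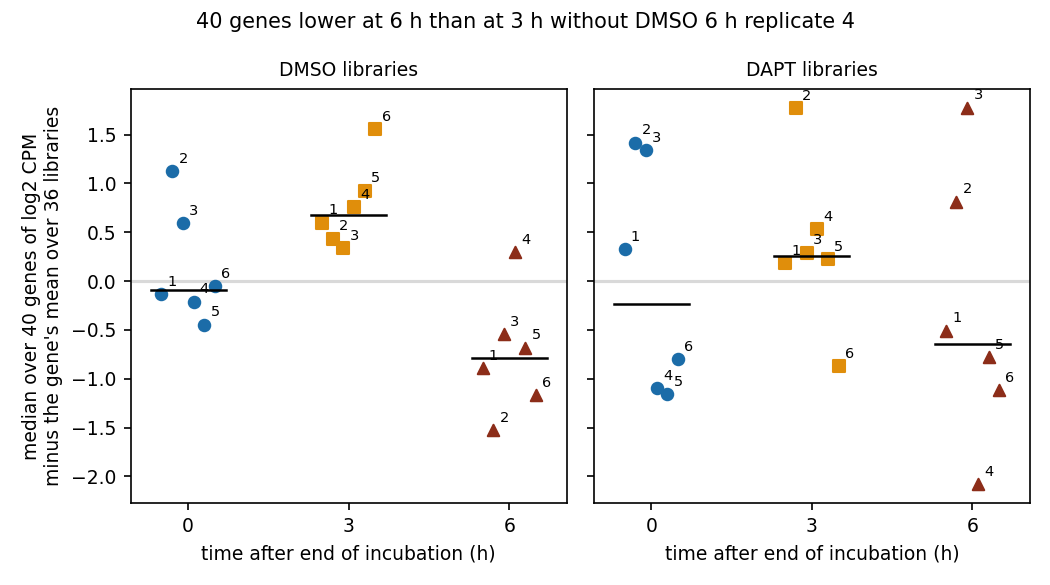
Median over the 40 genes of log2 CPM minus each gene's mean over 36 libraries (vertical axis) against the time after the end of incubation (h), for DMSO (left) and DAPT (right); points are libraries with their replicate number, bars are group medians. In DMSO all 6 libraries of 3 h lie above all 6 of 6 h, replicate 4 of 6 h being the highest of its group at 0.30. The genes were chosen for this difference in the DMSO libraries without that replicate, so the separation of those libraries follows from the choice. In DAPT, which the choice did not use, the times overlap.

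A linear trend over the 3 times was called for no gene (0%; edgeR, smallest adjusted p = 0.446, 1334 genes at an unadjusted p under 0.05, of which 830 had a positive and 504 a negative slope). DESeq2 called 13 genes and limma-voom 0. The genes with the smallest p in each direction are given as values.

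TRINITY_DN4814_c1_g1 had a lowest, median and highest value of 363, 407 and 507 CPM at 0 h, 479, 493 and 514 CPM at 3 h and 542, 673 and 1000 CPM at 6 h. All libraries of 6 h lay above all of the 2 earlier times, while 0 h and 3 h overlapped. The slope of log2 CPM was 0.12 per h (SE 0.02, edgeR adjusted p = 0.446). The highest value came from replicate 4 of 6 h, and without it the slope was 0.10 per h.

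TRINITY_DN1390_c0_g1 had values of 29.8, 35.2 and 37.1 CPM at 0 h, 40.3, 45.02 and 57.6 CPM at 3 h and 44.9, 50.2 and 63.0 CPM at 6 h. The later libraries, 12 in number, all lay above the 6 of 0 h, and 3 h and 6 h overlapped. Its slope was 0.10 per h (SE 0.02, edgeR adjusted p = 0.446).

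With a negative slope, TRINITY_DN1660_c0_g1 had values of 4.59, 6.25 and 8.93 CPM at 0 h, 3.87, 4.69 and 6.84 CPM at 3 h and 2.36, 3.37 and 4.07 CPM at 6 h. All libraries of 6 h lay below all of 0 h, and both overlapped with 3 h. Its slope was -0.17 per h (SE 0.03, edgeR adjusted p = 0.446). TRINITY_DN1681_c0_g1 had values of 17.7, 39.4 and 91.5 CPM at 0 h, 8.42, 12.9 and 21.1 CPM at 3 h and 2.00, 12.1 and 23.4 CPM at 6 h, with overlap between all 3 times. Its slope was -0.33 per h (SE 0.07, adjusted p = 0.446), and the difference lay mostly between 0 h and 3 h.

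**Figure D3:**
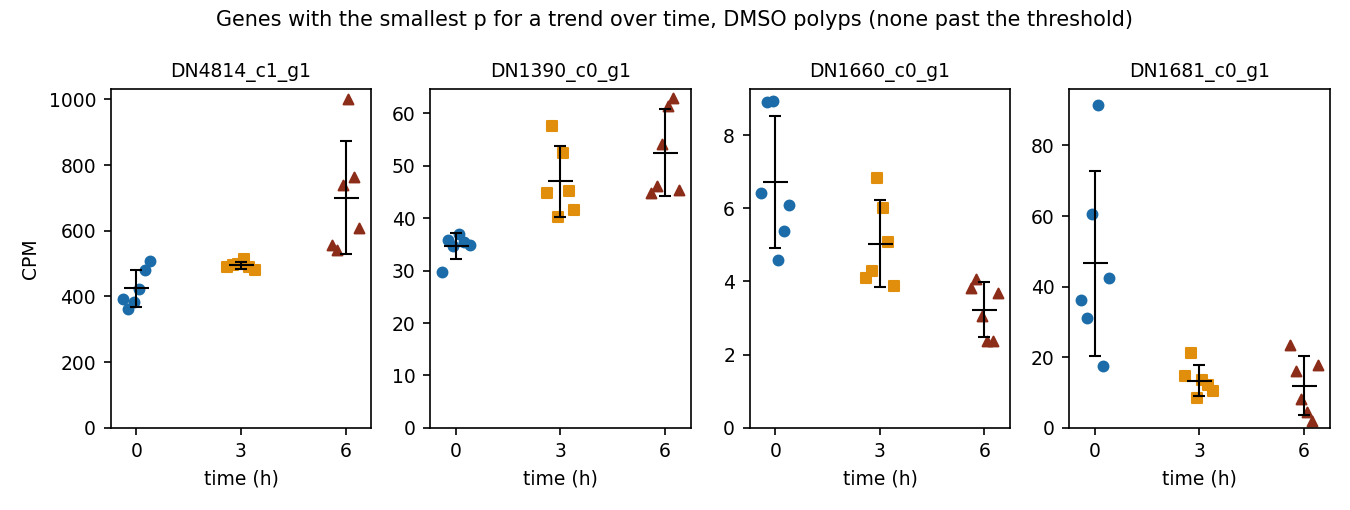
CPM (vertical axes, from 0) against time (h) of the 4 genes with the smallest p for a trend, 2 per direction; points are libraries, bars are mean ± SD (n = 6). None passed the threshold; in DN1390_c0_g1 all later libraries lie above those of 0 h, and in DN1681_c0_g1 the times overlap.

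The spread between replicates is given for each time, with no test between times. The biological coefficient of variation from edgeR's common dispersion, a typical relative SD of a gene between libraries beyond counting error, came to 29.1% for 0 h, 21.0% for 3 h and 35.7% for 6 h. Without replicate 4 the value at 6 h was 25.5%. Leaving out any other single library kept 0 h between 27.6% and 31.1% and 3 h between 18.2% and 22.6%. The DAPT groups lay at 25.9%, 34.3% and 32.5% in the order of time. In DMSO the 3 h libraries were the most alike, while in DAPT the 0 h libraries were. The order of 0 h and 6 h in DMSO turned without replicate 4 of 6 h.

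Per gene, the SD of log2 CPM within time, pooled over the times, had a median of 0.40, or 1.32-fold. It lay under 0.21 for 10% of the genes and above 0.73 for another 10%. The spread was smallest at middle abundance: its median was 0.52 under 2 CPM, 0.41 at 2 to 10 CPM, 0.34 at 10 to 100 CPM, 0.35 at 100 to 1000 CPM and 0.43 at 1000 CPM or more. Counting error alone would give a median SD of 0.48 under 2 CPM and 0.01 at 1000 CPM or more, before the prior count of 2 that narrows the spread of low genes. Spread of the most counted genes was therefore far above counting error. Without replicate 4 of 6 h the class medians, from the lowest class up, were 0.48, 0.37, 0.29, 0.30 and 0.33. Under 2 CPM the median SD was 0.45 at 0 h and 0.41 at 3 h, below the value for counting error, which lacks the prior count. The comparison therefore does not show how much of the spread of the least counted genes is counting error.

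**Figure D4:**
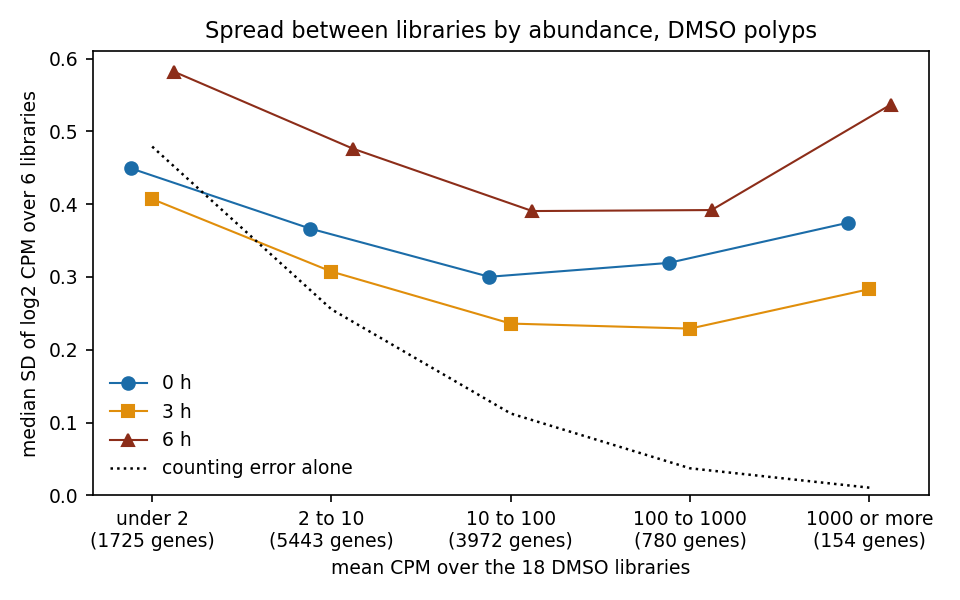
Median over genes of the SD of log2 CPM among the 6 libraries of a time (vertical axis) in 5 classes of mean CPM (horizontal axis), by time; the dotted line is the SD from counting error alone. With all 18 libraries, 3 h lies lowest and 6 h highest in every class; the place of 6 h rests on its replicate 4 in the coefficient of variation over all genes (35.7% with it, 25.5% without, beside 29.1% for 0 h). At 1000 CPM or more the medians are 0.37 at 0 h, 0.28 at 3 h and 0.54 at 6 h.

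The most variable genes with a mean of at least 10 CPM spanned over 100-fold within the control animals. TRINITY_DN2444_c0_g1 had a lowest, median and highest value of 10.01, 37.1 and 68.8 CPM at 0 h, 2.74, 14.4 and 53.2 CPM at 3 h and 0.545, 22.1 and 73.0 CPM at 6 h. The range was 134-fold, and the lowest library held 3 counts. DN1724_c0_g2 and DN6110_c0_g1 spanned 119-fold and 102-fold with as few as 2 and 9 counts, and the 3 times overlapped in all 3 genes.

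The steadiest gene of that abundance, TRINITY_DN10088_c0_g1, stayed between 28.9 and 34.4 CPM in all 18 libraries, with means of 30.8 ± 2.01 CPM at 0 h, 32.2 ± 1.70 CPM at 3 h and 30.9 ± 0.567 CPM at 6 h (SD, n = 6). Its pooled SD was 0.07 on the log2 scale. DN2458_c0_g1 followed, at 197 to 261 CPM, and then DN265_c0_g1, at 185 to 228 CPM. In both, replicate 4 of 6 h held an end of the 6 h values: the highest of the first, at 261.4 CPM, and the lowest of the second, at 189.6 CPM.

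The leading direction of difference between libraries did not separate the times, whose libraries overlapped on it. The first principal component of log2 CPM held 45.1% of the variance, and 47.0% after the mean of each time had been removed. Replicate 4 of 6 h lay at -102 on it, replicate 6 of 3 h at -50.0, replicate 5 of 6 h at -44.0 and replicate 1 of 6 h at 49.9, so the libraries of 6 h alone spanned both ends. At 0 h replicate 1 lay at -19.9 and the others above 0, up to 45.9 in replicate 6. Without replicate 4 of 6 h the first component within time still held 35.9%. Time accounted for 17.96% of the summed squares over all genes, with 11.8% of the degrees of freedom, and 21.1% without that library. The second component, at 15.1% of the variance, had all 6 libraries of 3 h above 0 and all 6 of 6 h below 0, with the 0 h libraries on both sides.

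**Figure D5:**
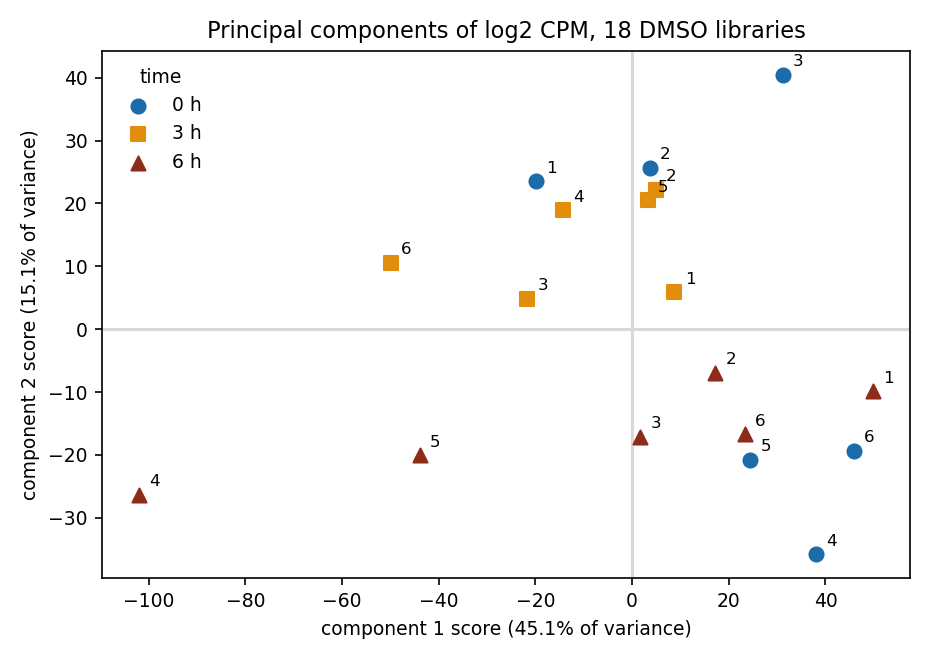
Scores of the 18 DMSO libraries on the first and the second principal component of log2 CPM, with 45.1% and 15.1% of the variance; colours and shapes give the time and numbers the replicate. Replicate 4 of 6 h lies at the far left, and on the vertical axis the 3 h libraries lie above 0, the 6 h libraries below 0 and the 0 h libraries on both sides, numbers 1 to 3 above and 4 to 6 below.

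The same direction was present in the DAPT animals, which share no library with the controls. Across 12074 genes, the weights of the first component within time in DMSO and in DAPT had a Pearson correlation of 0.896, and 0.864 without replicate 4 of 6 h. Genes are not independent replicates, and the 2 sets of libraries share the assembly, the kit and the laboratory. To follow the direction in the controls on genes that their own values did not choose, the 100 genes with the most extreme weights at each end in DAPT were taken. The first set, on the side of replicate 4 of 6 h, took 0.172% to 0.655% of the counts of a DMSO library, and the second 0.0281% to 1.32%. Within 6 h alone, replicate 4 had the highest share of the first set and the lowest of the second, and replicate 1 the reverse, so each set's full range over the 18 libraries lay among animals of a single time. Of the 100 genes of each DAPT set, 23 of the first and 70 of the second were also among the 100 most extreme at that end in DMSO. Between times in DMSO, the median log2 difference over the first set was 0.36 for 3 h against 0 h and 0.51 for 6 h against 0 h. Over the second set it was -1.32 and -0.83, so its genes were on median lower at both later times. The median log2 level over the first set was also taken per library, relative to the mean of the 18 libraries. At 6 h it was 1.62 in replicate 4 and -0.64 to 0.61 in the others, beside -0.65 to 0.38 at 0 h. The set differences of 6 h from 0 h include replicate 4 and were not computed without it. A difference of the sets between times was not tested.

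Similarity between libraries was scarcely higher within than between times. The 45 pairs of libraries of the same time had a median Spearman correlation across genes of 0.944 (range 0.776 to 0.981), and the 108 pairs of different times a median of 0.940 (range 0.786 to 0.980). Without replicate 4 of 6 h the medians were 0.954 and 0.945. The mean profiles of any 2 times correlated at 0.978 to 0.980.

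Replicate 4 of 6 h differed from the mean of the other 5 libraries of its time by more than 2-fold in 4220 genes (35.0%), of which 1881 were above and 2339 below. The same count was 136 to 1781 for the other 17 libraries against their own times, the highest being replicate 1 of 6 h. Its total count, 5860856, was the second lowest, and its TMM factor of 0.647 the lowest. Among genes with a mean of at least 10 CPM, TRINITY_DN44056_c0_g1 stood out upwards, at 104 CPM in that library and 8.84 to 10.4 CPM in the other 5 of 6 h. TRINITY_DN6110_c0_g1 stood out downwards, at 2.37 CPM, with 17.1 to 211 CPM in the other 5. DN13517_c0_g1 at 50.4 CPM and DN4778_c0_g1 at 3.43 CPM were the next in each direction, against ranges of 2.99 to 10.5 and 35.0 to 185 CPM.

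The 0 h libraries were divided by their replicate numbers, a division noticed in the data. In 231 of 12253 genes (1.89%) the 3 libraries numbered 1 to 3 lay all more than 2-fold above or below the 3 numbered 4 to 6, with 186 above and 45 below. In DMSO at 3 h and at 6 h the same division gave 2 genes each. TRINITY_DN196_c0_g1 lay at 36203 to 61361 CPM in numbers 1 to 3 and at 5401 to 9347 CPM in numbers 4 to 6, and TRINITY_DN13517_c0_g1 at 20.7 to 27.3 and at 1.93 to 2.19 CPM. The total counts were divided too, at 8564579 to 9873696 against 12372131 to 14060485. The DAPT libraries showed 99 such genes at 0 h, 10 at 3 h and 92 at 6 h. At 0 h in DAPT, 229 of the 231 genes differed in the same direction between the numbers as in DMSO, and at 6 h in DAPT 109 did. At 3 h 30 did in DMSO and 40 in DAPT, and at 6 h in DMSO 71 did, so most went the other way there. The same count over all genes was not taken. Across genes, the difference between the numbers in DMSO and in DAPT at 0 h correlated at 0.692 (Pearson, 12253 genes), while that of DMSO at 0 h and DAPT at 6 h correlated at 0.0592. With DMSO at 0 h, the difference in DMSO at 3 h, DMSO at 6 h and DAPT at 3 h correlated at -0.338, -0.306 and -0.363. The labels give no batch for these numbers, and a batch was not tested. With both sets of 0 h libraries fitted as separate means, a choice made after seeing the data, 121 genes were called for 6 h against 3 h, of which 114 were lower at 6 h. The numbers were 37 for 3 h against 0 h and 9 for 6 h against 0 h.

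Whether control animals changed differently from treated ones was tested as an interaction in a fit of all 36 libraries and 12253 genes. No gene was called for the change from 0 h to 3 h (0%; edgeR, 150 genes at an unadjusted p under 0.05) or from 3 h to 6 h (0%; 319 genes). For the change from 0 h to 6 h 1 gene was called (0.00816%; 477 genes at an unadjusted p under 0.05), TRINITY_DN624_c0_g1, named because it was called. In DMSO its lowest, median and highest values were 4.64, 5.33 and 6.13 CPM at 0 h, 7.77, 8.36 and 9.65 CPM at 3 h and 5.69, 7.11 and 10.1 CPM at 6 h, so all libraries of 3 h lay above all of 0 h. In DAPT they were 12.2, 16.6 and 19.6 CPM at 0 h, 3.43, 12.6 and 14.5 CPM at 3 h and 4.42, 7.56 and 9.39 CPM at 6 h, with 0 h above all of 6 h. The change in DMSO exceeded that in DAPT by 1.69 in log2 CPM (SE 0.29; adjusted p = 0.0225, edgeR), and by 1.59 without replicate 4 of 6 h, where it was not called (adjusted p = 0.062). When a replicate number was left out of both treatments, the gene stayed called only without number 2. Within DMSO alone the difference of 6 h from 0 h was 0.47 and was not called (edgeR adjusted p = 0.4), and within DAPT alone it was -1.20 (edgeR adjusted p = 0.0892).

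For scale, DAPT against DMSO at 0 h, 3 h and 6 h gave 923, 791 and 622 called genes in the same fit (7.53%, 6.46% and 5.08% of 12253), against none between any 2 times within the controls. The median absolute log2 difference over all genes was 0.19, 0.21 and 0.18 for the treatment, about as large as the 0.19 to 0.22 between times.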

How the data were processed

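Per the labels, adapters, polyA and splice leader sequences were trimmed and reads of quality under 20, under 30 bp or with undetermined bases were removed. RSEM, Bowtie2 and DESeq2 1.18.1 appear in the submitters' processing notes without a role. The values deposited by the authors are expected counts, fractional read estimates per gene, for 12410 genes; 98.9% of the values were not whole, and they were rounded. No value column was left unused (0). How reads were shared between genes of an assembly component is not stated; 548 genes share one. Lanes are not given per sample.

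The 18 DMSO libraries were filtered with filterByExpr (12074 genes kept), scaled with TMM and tested with edgeR 4.0.16 (R 4.3.3) quasi-likelihood F tests, with 3 group means or a slope on time, BH adjusted and called under 0.05. Log2 CPM used a prior count of 2. SE come from the F statistic. The interaction used all 36 libraries. Library measures were compared by exact permutation tests (scipy). Alternatives were DESeq2 1.42.0, limma-voom (limma 3.58.1), surrogate variables (sva 3.50.0), other scalings and filters, a replicate block, and libraries left out. The tests were tried on simulated counts.

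Genes were named by rule: the 5 most counted; 2 per trend direction by p; 3 most and 3 least variable and 2 per direction in the library apart, at 10 CPM or more; others are named as chosen after their values were seen. The libraries, rules and alternatives were chosen with earlier results of these data known. Replicates are biological per the labels. Replicate numbers were checked for pairing of DMSO libraries across times, and 3 of 18 same-numbered pairs correlated over 0.1 (range -0.56 to 0.47). The numbers were therefore not taken to pair DMSO libraries across times. Pairing of DMSO with DAPT libraries of the same number within a time was not checked.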

Additional observations from a re-analysis of the deposited data

Results flagged for a closer look

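Within each group of 6, 78 sets of values (6 library measures and 20 genes, at 3 times) were examined for a library lying apart. A library was flagged if its gap to its nearest neighbour was wide beside the group's range (past Dixon's 95% critical value). Chance gives this in about 1 of 20 groups, and 15 sets had a flag. Many genes were chosen for their values or spread and the sets share libraries, so these shares cannot be compared.

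At 3 h, replicate 2 had 39.0% of its counts in its top 20 genes against at most 29.0% in the other 5, an effective number of 445 genes against at least 654, and 45 genes for 50% of its counts against at least 75. It was also the highest 3 h library for DN196_c0_g1 (42819 CPM), DN2787_c2_g1 (44964 CPM), DN1280_c0_g1 (38604 CPM) and DN44056_c0_g1 (22.6 CPM). Replicate 1 of 3 h was highest for DN2444_c0_g1 (53.2 CPM).

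At 6 h, replicate 4 was far above the others for DN3888_c0_g1 (95719 CPM), DN196_c0_g1 (95548 CPM), DN44056_c0_g1 (104 CPM) and DN13517_c0_g1 (50.4 CPM), and replicate 1 for DN1724_c0_g2 (50.7 CPM). The last 2 named for replicate 4 were chosen for their excess there, and DN2444_c0_g1 and DN1724_c0_g2 for their large spread. At 0 h the lowest library lay apart for DN1390_c0_g1 (29.8 CPM, replicate 1) and DN2458_c0_g1 (208.4 CPM, replicate 4).

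The change of DN624_c0_g1 from 0 h to 6 h differed between DMSO and DAPT by 1.69 on the log2 scale in edgeR's interaction test. The call was lost when most of the replicate numbers were left out.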

How the results depend on the processing

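The counts of called genes over time were 0 with all 18 libraries and depended on the tool and on single libraries; the causes were not tested. In the order 3 h against 0 h, 6 h against 3 h, 6 h against 0 h, trend, any difference and 3 h against the mean of the others, DESeq2 called 11, 55, 14, 13, 75 and 37, surrogate variables gave 21, 52, 126, 71, 130 and 18, and limma-voom with library weights 3678, 319, 3, 0, 2740 and 2868. Plain limma-voom called 1 for 6 h against 3 h, 7 for any difference and 4 for 3 h against the others. Library totals called 23 for 6 h against 3 h, 2 for 6 h against 0 h, 4 for any difference and 4 for 3 h against the others. For 6 h against 3 h, upper-quartile factors called 11, a mean of at least 5 CPM 6 and an adjusted p under 0.1 13, which called 1 for 3 h against the others. Separate means for the numbers 1 to 3 and 4 to 6 of 0 h, chosen after seeing the data, called 37, 121, 9, 120 for any difference and 116 for 3 h against the others. DESeq2 size factors, no filter, robust fitting and the fit of 36 libraries called 0 in all 6.

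Leaving out replicates gave 0 to 47 for 3 h against 0 h (47 without number 1), 0 to 40 for 6 h against 3 h (40 without 6 h replicate 4, 23 without 0 h replicate 2, 10 without 0 h replicate 5), 0 to 12 for any difference, 0 to 18 for 3 h against the others (18 without 0 h replicate 2, 16 without 6 h replicate 4), and 0 for 6 h against 0 h and for the trend. For 6 h against 3 h, the genes called under the other scalings and filters, DESeq2, limma-voom and each left-out library were all lower at 6 h; library weights called 62 higher, surrogate variables 14 and the separate 0 h means 7.

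With the replicate block 0 genes were called in all 6 comparisons (688 to 926 at an unadjusted p under 0.05). Of the DMSO libraries, 3 of 18 had their own number as best partner at another time. The block changed no interaction call either. The interaction from 0 h to 6 h gave 0 genes without 6 h replicate 4 and 0 to 2 without a replicate number. Its gene, DN624_c0_g1, was no longer called with library totals (log2 difference 1.64, edgeR adjusted p = 0.146). It was not called without number 1, 3, 4, 5 or 6 either (log2 difference 1.60 to 1.78, edgeR adjusted p = 0.132 to 0.332). Without number 2 it stayed called (edgeR adjusted p = 0.00269).

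With a mean of at least 5 CPM, which tests 7261 genes, 6072 and 5976 genes were bounded within 2-fold for 3 h and 6 h against 0 h. Slopes of the 4 trend genes kept their sign in every alternative; with surrogate variables all 4 were called and with DESeq2 all but DN1660_c0_g1. Precision is limited by 6 libraries per time, by the lower depth at 6 h, and by the absence of genes at 0.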
